A study of Mus musculus with 4 samples.

Results

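The genes described here are the ligands, receptors, Smad proteins and Id proteins of bone morphogenetic protein (BMP) and transforming growth factor beta (TGF-beta) superfamily signalling. Members were picked by a pattern of gene symbols among protein-coding genes, and came to 53 of the 39179 genes in the table. The pattern contains no measured value, but the gene group was chosen with earlier results of these data known. They were followed in cardiac progenitors differentiated from mouse embryonic stem cells whose Gata6 can be induced. The 2 treated samples received cucurbitacin I hydrate, a natural triterpenoid that blocks JAK2 and STAT3 signalling, at 10 µM. The 2 control samples received DMSO, a solvent, at 0.1% of the medium, and the DMSO content of the treated samples is not stated. All 4 libraries shared the cell line, the serum-free differentiation and a start of treatment on day 6. The labels give 2 days of treatment and titles that name day 8, but a harvest on day 10, and they do not say whether Gata6 was induced. All cells came from a single engineered line. Whether replicate libraries were grown separately is not stated, so the p-values reflect the spread among these 4 libraries and that spread may be technical.

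Ligands of this superfamily are secreted dimers that bring together type I and type II receptor kinases. BMP-type receptors phosphorylate SMAD1, SMAD5 and SMAD9, and TGF-beta and activin receptors phosphorylate SMAD2 and SMAD3; both sets then pair with SMAD4 and enter the nucleus. SMAD6, SMAD7 and the Id proteins are encoded by genes that the pathway itself induces. In the embryo, BMP signals take part in the induction of cardiac mesoderm and in forming the chambers and valves.

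Total counts per library were 26773886 and 23759431 with cucurbitacin I and 27069312 and 25573785 with DMSO. Levels are CPM, the TMM-scaled counts per 1e6 reads, and a gene was called at an adjusted p below 0.05 in edgeR's quasi-likelihood test over all 16722 genes tested. For 1 gene alone, exact permutation of 2 and 2 libraries has a smallest p of 0.333, and the calls depend on edgeR's pooling of the spread over genes. Markers of cardiac muscle were present, and no separate list of cardiac progenitor markers was read. The summed level of 8 cardiac muscle genes was 26689 and 33077 CPM with cucurbitacin I against 7649 and 9667 CPM with DMSO. Of these 8, 5 were called higher, and Myh6, Nkx2-5 and Myh7 did not pass. The marker calls stand beside 19.5% of all genes tested lower and 13.9% higher. Markers of several other cell types fell, and in bulk libraries fewer cells of a type and less RNA per cell cannot be told apart. All 8 endoderm and yolk sac markers were lower, with sums of 6.43 and 6.77 CPM against 544 and 796 CPM. Of 8 endothelial markers 5 were lower and 0 higher, with sums of 22.5 and 30.4 CPM against 124 and 154 CPM, and Emcn was at 0 in both cucurbitacin I libraries. Of 8 fibroblast and matrix markers 7 were lower and 0 higher, with sums of 485 and 787 CPM against 1630 and 1950 CPM. Of 8 blood and macrophage markers 7 were lower and 0 higher, with sums of 31.2 and 56 CPM against 383 and 482 CPM, and Tyrobp was at 0 in both cucurbitacin I libraries. Of 6 epicardial markers 1 was lower and 0 higher, with sums of 67.6 and 76.9 CPM against 46.9 and 160 CPM. Of 6 smooth muscle markers 4 were higher and 0 lower, with sums of 2392 and 3153 CPM against 598 and 796 CPM. Of 6 pluripotent-cell markers 1 was tested and 0 called, with sums of 2.09 and 3.03 CPM against 3.47 and 3.79 CPM. The part of these cell types in the results below was not tested.

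All 4 Id genes and both inhibitory Smad genes fell in cucurbitacin I, and so did the ligand genes Bmp4, Gdf2, Gdf6 and Gdf10. Smad4, the shared partner of all signalling Smads, went the other way and rose 4.15-fold. The abundant receptor genes Bmpr1a and Tgfbr1 did not pass the threshold. Of the 53 members, 43 passed the filter on low counts; 16 of these fell, 2 rose and 25 did not pass. Over all genes tested, 19.5% were lower, 13.9% higher and 33.4% called in either direction, set beside 37.2%, 4.7% and 41.9% of the tested members. The median log2 fold change was -0.21 over the members and -0.01 over all genes tested. The groups did not overlap in 32 members, or 74.4%, which is near the 73% of all genes tested. With library totals alone as the scaling, the median over all genes shifted to -0.24 and the calls over all genes to 1059 higher and 4767 lower in place of 2318 and 3259, while the members had 18 lower and 2 higher. Without DMSO replicate 1 a single member, Smad4, was called higher, and without cucurbitacin I replicate 2 the higher calls were 5.

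**Figure D1:**
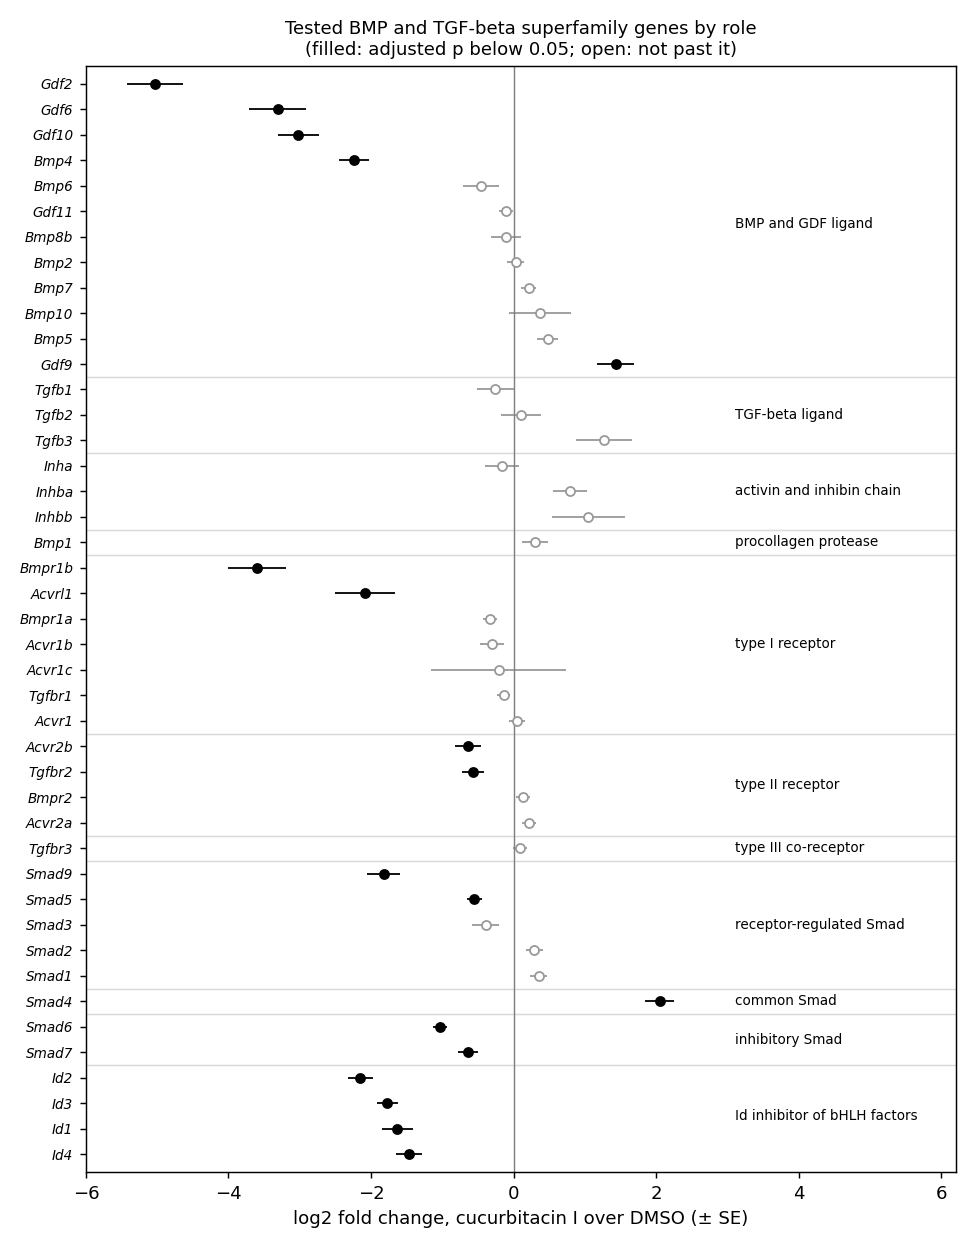
Log2 fold change of cucurbitacin I over DMSO (x axis, with its SE) for the 43 tested members, grouped by role; filled points passed an adjusted p of 0.05 and open points did not. Smad4 at 2.05 stands at the right, and the 4 Id genes sit between -2.15 and -1.47 at the bottom.

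The 4 Id genes encode small helix-loop-helix proteins without a DNA-binding region, which hold E proteins and other basic helix-loop-helix factors off DNA. Id2 (chromosome 12, 25093801 to 25096092, mm10) had 54.1 and 68.9 CPM with cucurbitacin I and 308 and 239 CPM with DMSO. Id3 had 47.8 and 58.2 CPM with cucurbitacin I and 197 and 163 CPM with DMSO. For both genes each DMSO library lay far above each cucurbitacin I library. On the log2 scale the fold change was -2.15 for Id2 (SE 0.18, adjusted p = 0.00264) and -1.77 for Id3 (SE 0.15, adjusted p = 0.00264). Id1 had 27.9 and 25.6 CPM with cucurbitacin I and 100 and 65 CPM with DMSO, or -1.63 as a log2 fold change (SE 0.22, adjusted p = 0.00652). Id4, the least abundant of the 4, had 4.01 and 4.29 CPM with cucurbitacin I and 10.9 and 12.1 CPM with DMSO, or -1.47 as a log2 fold change (SE 0.18, adjusted p = 0.00554). All 4 kept their call in each of the 4 fits that left out 1 library. Per kilobase of exon, the Id genes summed to 74 and 84 CPM with cucurbitacin I against 326 and 248 CPM with DMSO. Id2 made up 30% and 33.7% of that sum with cucurbitacin I and 38.7% and 39.4% with DMSO, while the shares of Id3, 36.1% and 38.7% with cucurbitacin I and 33.8% and 36.7% with DMSO, overlapped. An antisense gene and a lincRNA overlap Id4 on the other strand, and the antisense gene held 83 counts over the 4 libraries.

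The Id genes and Smad6 fell together and are classical BMP-responsive genes, so their promoters were searched. Id1 had no entry among the promoter sequences used and was left out. For Id2, Id3, Id4 and Smad6, the 250 bases before the RefSeq start were searched on both strands for 4 Smad-related motifs. These were the palindromes GGCGCC and GTCTAGAC, and GGCGCG and GTCTG. The sequences are RefSeq's, of build GRCm38.p6. GGCGCC was found once in Id2 and once in Id4, and 9.59% of 32851 promoter windows of the same length hold it. GGCGCG was found 3 times in Id4 (15.9% of windows hold it), GTCTG was found 2 times in Id3 (42.2%), and GTCTAGAC was in none of the 4 (0.167%). None of the motifs was in the Smad6 window, and sequence outside the windows was not searched. The windows of Id2, Id3, Id4 and Smad6 had a GC content of 62.8%, 62.8%, 75.6% and 66.8%, against a median of 52.4% over all windows. A match is a description of the letters and no evidence of binding. The Id2 window is chr12:25096093-25096342 on the minus strand, that of Id4 is chr13:48260866-48261115 on the plus strand, and that of Smad6 is chr9:64022060-64022309 on the minus strand. The Id3 window, chr4:136143572-136143821 on the plus strand, is not printed because it lies inside the gene as the deposited table bounds it, from 136143497. The other 3 are shown 5′ to 3′ because these are the promoters of genes that moved together, with motif matches in capitals.
Id2: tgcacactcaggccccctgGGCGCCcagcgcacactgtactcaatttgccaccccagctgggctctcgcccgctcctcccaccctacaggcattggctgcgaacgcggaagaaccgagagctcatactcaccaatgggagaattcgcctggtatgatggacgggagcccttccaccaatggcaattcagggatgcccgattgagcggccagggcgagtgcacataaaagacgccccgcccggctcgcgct
Id4: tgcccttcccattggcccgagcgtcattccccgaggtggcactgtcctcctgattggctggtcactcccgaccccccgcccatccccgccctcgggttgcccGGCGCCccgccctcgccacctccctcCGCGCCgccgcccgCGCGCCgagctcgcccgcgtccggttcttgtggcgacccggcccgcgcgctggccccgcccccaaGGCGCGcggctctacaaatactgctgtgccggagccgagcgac
Smad6: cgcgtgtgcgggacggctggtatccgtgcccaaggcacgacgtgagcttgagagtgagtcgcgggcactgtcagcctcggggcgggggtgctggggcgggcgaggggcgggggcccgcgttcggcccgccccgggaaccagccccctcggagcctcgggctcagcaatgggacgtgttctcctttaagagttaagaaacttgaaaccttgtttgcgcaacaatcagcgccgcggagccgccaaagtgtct

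Among the Smad genes, the signalling partner and the inhibitors moved in opposite directions. Smad4 (ENSMUSG00000024515, chromosome 18, 73639009 to 73703780, mm10) had 11510 and 15008 counts with cucurbitacin I against 4161 and 3744 with DMSO. That is 471 and 678 CPM with cucurbitacin I and 139 and 138 CPM with DMSO, or 2.05 as a log2 fold change (SE 0.20, adjusted p = 0.00309). The DMSO libraries were close together and both cucurbitacin I libraries lay well above them. It passed in each fit without 1 library, with a lowest value of 1.77 without cucurbitacin I replicate 2. No other gene of the GENCODE annotation used shares exonic bases with Smad4, and counts per gene do not show which exons the reads came from. Smad6, an inhibitor that acts mainly on BMP receptors, had 44.7 and 50.7 CPM with cucurbitacin I and 95.8 and 98.4 CPM with DMSO, or -1.03 as a log2 fold change (SE 0.10, adjusted p = 0.00342). Smad7, which inhibits both branches, had 32.7 and 25.7 CPM with cucurbitacin I and 45.7 and 45.3 CPM with DMSO, or -0.64 as a log2 fold change (SE 0.14, adjusted p = 0.0223). The call of Smad7 was lost without DMSO replicate 1 (adjusted p = 0.11) or DMSO replicate 2 (0.08), while Smad6 passed in each fit without 1 library.

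The receptor-regulated Smads divided within the BMP branch. Smad9 had 6.1 and 8.62 CPM with cucurbitacin I and 29.2 and 22.5 CPM with DMSO, or -1.82 as a log2 fold change (SE 0.23, adjusted p = 0.00584). Smad5 had 78.3 and 75.7 CPM with cucurbitacin I and 120 and 106 CPM with DMSO, or -0.55 as a log2 fold change (SE 0.10, adjusted p = 0.0145), and did not pass without DMSO replicate 1 (0.086). Smad1, the third of this branch, had 41.2 and 37.1 CPM with cucurbitacin I and 32.8 and 28.4 CPM with DMSO. Its groups did not overlap, but it did not pass (log2 fold change 0.35, SE 0.12, adjusted p = 0.0795), except with the replicate number as a block (0.044). In the TGF-beta branch, Smad2 stood at or 0.29 as a log2 fold change (SE 0.12, adjusted p = 0.112) and Smad3 at -0.39 (SE 0.19, adjusted p = 0.176). Smad2 passed without cucurbitacin I replicate 2 (0.04), and Smad3 without cucurbitacin I replicate 1 (0.049) or with the replicate block (0.026). Per kilobase of exon, Smad4 made up 62.8% and 73.2% of the summed level of the 8 Smad genes with cucurbitacin I, against 26.2% and 27.9% with DMSO. In DMSO, Smad4 at 37.4 and 37.1 CPM per kilobase was followed by Smad6 at 29.9 and 30.7 and then by Smad3 at 28.8 and 22.3. With cucurbitacin I, Smad4 at 127 and 183 CPM per kilobase was followed by Smad3 at 22.5 and 16.6 and Smad6 at 14 and 15.8. Smad3 and Smad6 stood in the opposite order in DMSO and in cucurbitacin I, which was not tested.

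**Figure D2:**
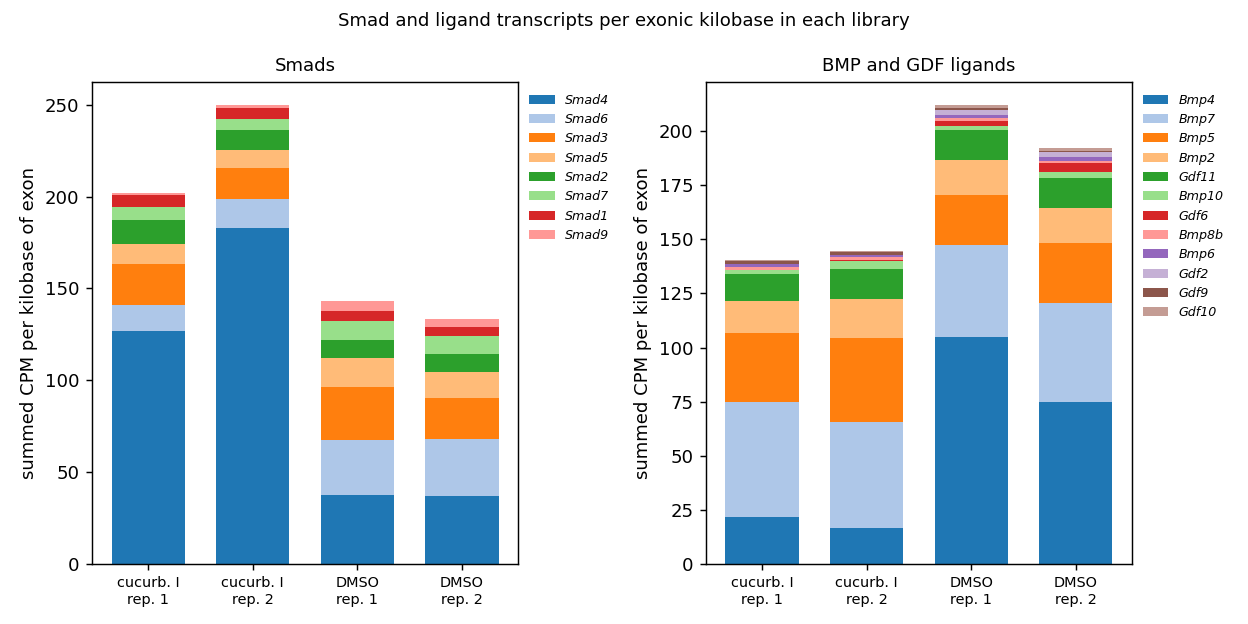
Summed CPM per kilobase of exon in each library (y axis; 1 bar per library) for the 8 Smad genes (left) and the 12 tested BMP and GDF ligand genes (right), stacked by gene. The Smad4 segment is 127 and 183 CPM per kilobase with cucurbitacin I against 37.4 and 37.1 with DMSO, and the Bmp4 segment is 21.6 and 16.6 against 105 and 75.

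Ligand genes of the BMP and GDF group divided into 4 that fell, 1 that rose and 7 that did not pass. Over all genes tested, 19.5% were lower and 13.9% higher. Bmp4, a ligand needed for mesoderm and outflow tract formation, was the most abundant of them per kilobase in DMSO. It had 48.6 and 37.3 CPM with cucurbitacin I and 237 and 168 CPM with DMSO, or -2.24 as a log2 fold change (SE 0.21, adjusted p = 0.00314). On the other strand, Gm15217 shares 89 exonic bases with Bmp4 and fell too (log2 fold change -2.32, edgeR adjusted p = 0.0101). Gm15217 had 9 and 8 counts with cucurbitacin I and 64 and 42 with DMSO. Gm15222, whose span also overlaps that of Bmp4, fell by 1.49 on the log2 scale (edgeR adjusted p = 0.0164). How reads in the shared bases were counted is not known. Gdf6, known from joint and eye formation, had 0.778 and 1.44 CPM with cucurbitacin I and 8.41 and 13.6 CPM with DMSO, or -3.31 as a log2 fold change (SE 0.40, adjusted p = 0.00525). Gdf10, also called BMP3b, had 0.737 and 1.13 CPM with cucurbitacin I and 7.41 and 7.76 CPM with DMSO, or -3.02 as a log2 fold change (SE 0.29, adjusted p = 0.00306). Bmp4, Gdf6 and Gdf10 were each several-fold lower in both cucurbitacin I libraries and passed in every fit without 1 library. Gdf2 encodes BMP9, a circulating ligand made mainly in the liver, and its counts were 3 and 6 with cucurbitacin I against 209 and 163 with DMSO. The DMSO level was 33.7 times the cucurbitacin I level by the ratio of scaled counts, with an exact 95% counting interval of 17.5 to 74.2 that covers counting error only (adjusted p = 0.00224). The fitted log2 fold change of Gdf2 was -5.03, with -5.67 without cucurbitacin I replicate 2 and -4.55 without cucurbitacin I replicate 1. The endoderm markers listed above, among them the liver genes Alb and Afp, fell beside it, and their part in the fall of Gdf2 was not tested.

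Gdf9, best known as an oocyte factor, was the ligand gene that rose. It had 3.19 and 3.03 CPM with cucurbitacin I and 1.17 and 1.14 CPM with DMSO, or 1.43 as a log2 fold change (SE 0.26, adjusted p = 0.0138). It did not pass without DMSO replicate 1 (0.079) or DMSO replicate 2 (0.064). The abundant ligand genes Bmp7 and Bmp2 did not pass: Bmp7 had 213 and 196 CPM with cucurbitacin I and 171 and 183 CPM with DMSO (log2 fold change 0.21, SE 0.10, adjusted p = 0.166, with the sign turned to -0.02 under library totals). Bmp2, a cardiac-inducing ligand, had 52.3 and 63.6 CPM with cucurbitacin I and 56.8 and 56.9 CPM with DMSO (log2 fold change 0.03, 95% interval -0.28 to 0.33, and -0.21 under library totals). Bmp5 had 129 and 157 CPM with cucurbitacin I and 92.2 and 113 CPM with DMSO. Its adjusted p was 0.0581 at or 0.48 as a log2 fold change (SE 0.15), and the call was gained with the replicate block (0.014), without cucurbitacin I replicate 1 (0.031), with no low-count filter (0.036) and in DESeq2 (0.041). An antisense gene, Gm26903, shares 1878 exonic bases with Bmp5 and held 4529 counts. With no strand setting stated, how reads in the shared bases were counted is not known. Bmp10, a ligand of the trabecular heart muscle, varied within groups, with 7.74 and 16.2 CPM with cucurbitacin I and 6.71 and 11.8 CPM with DMSO (adjusted p = 0.54). Gdf11 (log2 fold change -0.11, SE 0.10), Bmp8b (-0.10, SE 0.21) and Bmp6 (-0.46, SE 0.25) did not pass either, and exons of Txndc5 and Ppie overlap those of Bmp6 and Bmp8b. In shares of the summed ligand level per kilobase, Bmp4 held 15.4% and 11.5% with cucurbitacin I and 49.6% and 39% with DMSO. Bmp7 held 37.9% and 33.8% with cucurbitacin I and 20.1% and 23.6% with DMSO, so Bmp7 came first in both cucurbitacin I libraries and Bmp4 first in both DMSO libraries.

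**Figure D3:**
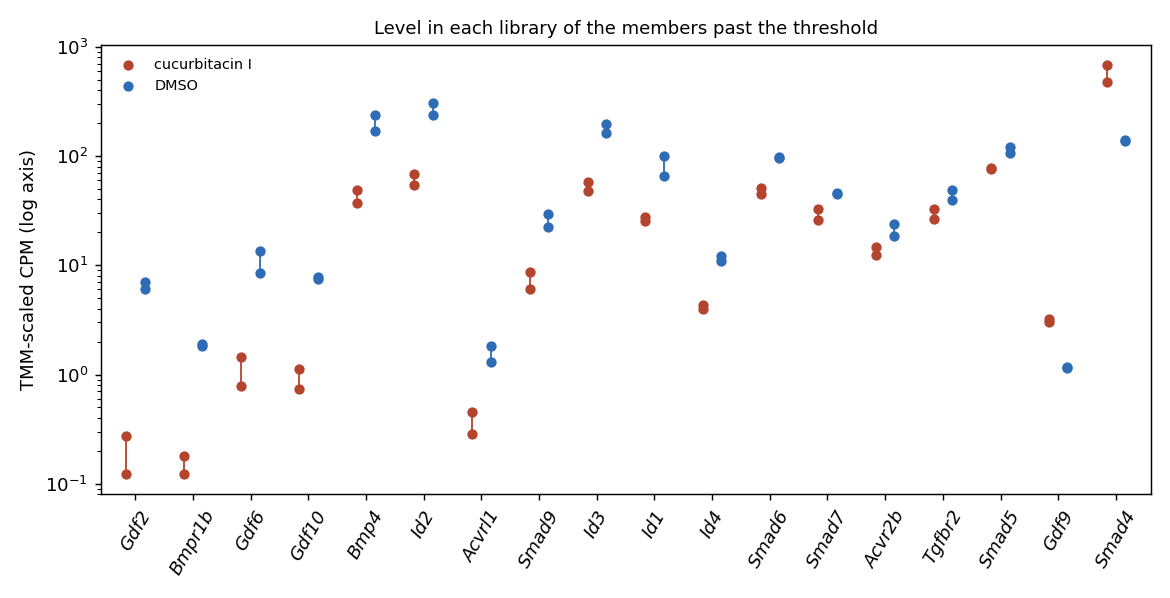
TMM-scaled CPM (log axis) in each library of the 18 members past the threshold, ordered by fold change; each point is 1 library and the line joins the 2 libraries of a group. Only Gdf9 and Smad4, at the right, have the cucurbitacin I libraries above the DMSO libraries.

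None of the TGF-beta ligand genes or activin and inhibin chain genes passed. Tgfb3 had 208 and 111 CPM with cucurbitacin I and 46.9 and 85.9 CPM with DMSO, or 1.27 as a log2 fold change (SE 0.39, adjusted p = 0.0557). All cucurbitacin I values were above the DMSO values, but the libraries within each group lay far apart. It passed without DMSO replicate 2 (1.77, adjusted p = 0.044), without cucurbitacin I replicate 2 (1.65, 0.01) and without a filter on low counts (0.017). It missed the threshold without DMSO replicate 1 (0.90, adjusted p = 0.2), without cucurbitacin I replicate 1 (0.75, 0.12) or with DESeq2 (1.26, 0.11). Tgfb2 had 303 and 164 CPM with cucurbitacin I and 221 and 212 CPM with DMSO, and the library left out decided its direction: -0.39 without cucurbitacin I replicate 1 and 0.49 without cucurbitacin I replicate 2 (adjusted p = 0.087 and 0.039). Tgfb1 had 24.5 and 14.3 CPM with cucurbitacin I and 22.9 and 23.7 CPM with DMSO (log2 fold change -0.26, adjusted p = 0.467), and passed without cucurbitacin I replicate 1 (-0.70, 0.028). Inhba, the activin A chain, had 4.1 and 3.88 CPM with cucurbitacin I and 2.1 and 2.5 CPM with DMSO (log2 fold change 0.79, SE 0.24, adjusted p = 0.053). Inhbb, the activin B chain, stood at 1.05 (SE 0.51) and the inhibin alpha chain gene Inha at -0.16 (SE 0.24). Bmp1 carries the family name but encodes a procollagen protease; it had 204 and 150 CPM with cucurbitacin I and 130 and 157 CPM with DMSO (adjusted p = 0.25).

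Among type I receptor genes, the scarce Bmpr1b and Acvrl1 fell, and the 5 others did not pass in either direction. Of all genes tested, 19.5% were lower and 13.9% higher. Bmpr1b, a type I receptor for BMPs and GDFs, had 3 and 4 counts with cucurbitacin I and 55 and 52 with DMSO. The DMSO level was 12.5 times the cucurbitacin I level, with an exact 95% counting interval of 5.84 to 31.7 (adjusted p = 0.00441). Acvrl1 encodes ALK1, the endothelial receptor for BMP9 and BMP10, and had 7 and 10 counts with cucurbitacin I and 55 and 35 with DMSO. Its log2 fold change was -2.08 (SE 0.42, adjusted p = 0.0175), and it did not pass without DMSO replicate 1 (0.097) or cucurbitacin I replicate 1 (0.064). The endothelial markers fell beside Acvrl1, and their part in it was not tested. Bmpr1a, the abundant type I BMP receptor gene, had 187 and 186 CPM with cucurbitacin I and 242 and 227 CPM with DMSO. Its log2 fold change of -0.33 (SE 0.10) had an adjusted p of 0.0505, and it passed with DESeq2 (0.041) and with library totals (-0.57, 0.012). Tgfbr1, the type I TGF-beta receptor gene, had 183 and 183 CPM with cucurbitacin I and 204 and 199 CPM with DMSO (log2 fold change -0.14, 95% interval -0.37 to 0.09), and passed with library totals alone (-0.38, adjusted p = 0.036). The type I receptor genes Acvr1 (0.05, SE 0.11) and Acvr1b (-0.30, SE 0.17) did not pass. Acvr1b stood at -0.53 without cucurbitacin I replicate 2, and the sign of Acvr1 turned to -0.19 under library totals. Acvr1c had 4 and 29 counts with cucurbitacin I and 12 and 35 with DMSO, with libraries of a group further apart than the groups.

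Of the 4 type II receptor genes, Tgfbr2 and Acvr2b fell modestly, beside 19.5% of all genes tested lower and 13.9% higher. Tgfbr2, the type II receptor for TGF-beta, had 32.7 and 26.6 CPM with cucurbitacin I and 39.7 and 48.4 CPM with DMSO (log2 fold change -0.57, SE 0.16, adjusted p = 0.0404). Acvr2b, an activin receptor, had 12.4 and 14.6 CPM with cucurbitacin I and 23.6 and 18.6 CPM with DMSO (log2 fold change -0.64, SE 0.18, adjusted p = 0.0428). Each passed in a single one of the 4 fits without 1 library. The adjusted p of Tgfbr2 was 0.073 without DMSO replicate 1, 0.18 without DMSO replicate 2 and 0.099 without cucurbitacin I replicate 2. That of Acvr2b was 0.23 without DMSO replicate 1, 0.056 without DMSO replicate 2 and 0.11 without cucurbitacin I replicate 1. Bmpr2, the type II BMP receptor gene, had 74 and 65.4 CPM with cucurbitacin I and 65.4 and 62.3 CPM with DMSO (log2 fold change 0.13, 95% interval -0.13 to 0.38, and -0.11 under library totals). Acvr2a (0.22, SE 0.10, and -0.01 under library totals) and the co-receptor gene Tgfbr3, which encodes betaglycan (0.09, SE 0.10, and -0.15 under library totals), did not pass. An oppositely stranded gene, Orc4, shares exonic bases with Acvr2a. Per kilobase, Bmpr1a led the type I receptor genes in each library, with 29.4 and 29.3 CPM with cucurbitacin I and 38.1 and 35.7 CPM with DMSO, and Tgfbr1 was next. The summed type I level was 81.4 and 88.3 CPM per kilobase with cucurbitacin I and 103 and 96.7 with DMSO, and the summed type II level was 19.1 and 19 against 21.4 and 21.

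**Figure D4:**
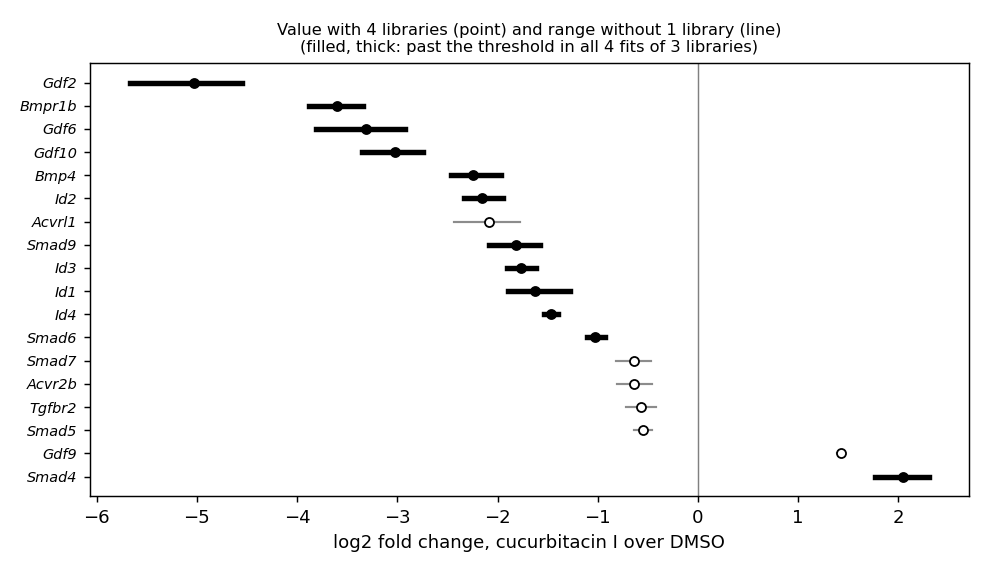
Log2 fold change of cucurbitacin I over DMSO (x axis) for the 18 members past the threshold, with all 4 libraries (points) and as a range over the 4 fits that left out 1 library (lines); thick lines mark the 12 members that passed in all 4. The 6 others are Acvrl1, Smad7, Acvr2b, Tgfbr2, Smad5 and Gdf9.

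The 10 members that were not tested had between 0 and 12 counts in any library. They are Bmp3, Bmp8a, Bmp15, Gdf1, Gdf3, Gdf5, Gdf7, Gdf15, Inhbc and Inhbe. Gdf15, a stress-induced member, had 6 and 8 counts with cucurbitacin I and 5 and 2 with DMSO, too few to show a difference. All 18 members called here also had an adjusted p below 0.05 in the authors' deposited DESeq2 values, which come from the same 4 libraries. Below 0.05 in those values but not called here were Tgfb3 (adjusted p = 0.0268), Inhba (0.00488), Bmpr1a (0.000101), Bmp5 (0.0459), Smad1 (0.0488) and Tgfbr1 (0.0432). The share of all genes below 0.05 in those values was not taken.

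The other genes of the pathway were read from lists of 90 genes, of which 82 were tested. Of these 82, 23 fell, 9 rose and 50 did not pass, with a median log2 fold change of -0.18. The list counts that follow stand beside 19.5% of all genes tested lower and 13.9% higher, and no list was tested as a set. Those shares and the list counts are from the fit with all 4 libraries. The number of calls depended on which library was left out, among the 82 and among all genes tested. Among secreted antagonists, which bind ligands outside the cell, 7 of 15 tested were lower and 1 higher (median -0.88). Bmper, an extracellular regulator of BMP4, had 10.7 and 17.3 CPM with cucurbitacin I and 57.1 and 55.5 CPM with DMSO, and fell by 2.01 on the log2 scale (adjusted p = 0.0046). Grem1 fell by 2.17 and chordin, Chrd, by 1.25, whereas the Nodal antagonist gene Dand5 rose by 0.99. Sostdc1 had 0 counts in both cucurbitacin I libraries and 37 and 14 with DMSO, and the median stays at -0.88 with it set to its bound. Calls were lost for Grem1 without DMSO replicate 2 (adjusted p = 0.056), and for Chrd (0.075 and 0.055) and Dand5 (0.083 and 0.066) without DMSO replicate 1 and 2. Noggin, Nog, had 5.49 and 1.49 CPM with cucurbitacin I and 3.54 and 2.65 CPM with DMSO, and stood at -1.05 without cucurbitacin I replicate 1 in place of 0.18. Of 7 co-receptor genes, Eng and Rgma fell and 0 rose. Endoglin, Eng, a co-receptor of endothelium, had 2.91 and 4.97 CPM with cucurbitacin I and 14 and 23.9 CPM with DMSO (log2 fold change -2.27, SE 0.37, adjusted p = 0.0107), and exons of Fpgs overlap it. Rgma fell by 1.26 and did not pass without DMSO replicate 1 (0.1). The pseudoreceptor gene Bambi had 308 and 358 CPM with cucurbitacin I and 252 and 301 CPM with DMSO (log2 fold change 0.27, SE 0.14, adjusted p = 0.195).

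**Figure D5:**
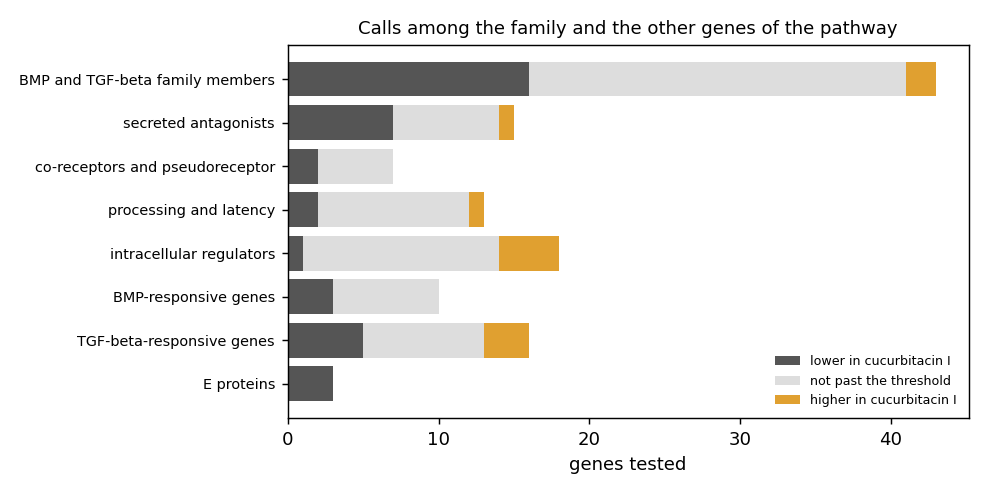
Number of tested genes (x axis) that were lower, not past the threshold or higher in cucurbitacin I, for the 43 tested family members and each list of other pathway genes. All 3 E protein genes were lower, and the list with the most higher calls is that of intracellular regulators, with 4 of 18.

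Genes for ligand processing and latency had 2 of 13 lower and 1 higher, with 19.5% lower and 13.9% higher among all genes tested. The latent TGF-beta binding protein genes Ltbp4 and Ltbp3 fell by 1.37 and 0.62, and Itgav, the integrin alpha-V chain that activates latent TGF-beta, rose by 1.42. Calls were lost for Ltbp3 without DMSO replicate 2 (adjusted p = 0.062) and for Itgav without DMSO replicate 1 (0.073) or 2 (0.062). Intracellular regulators had 4 of 18 higher and 1 lower, beside the same shares over all genes, with a median of -0.04. Fkbp1a, whose product FKBP12 binds type I receptors, had 528 and 436 CPM with cucurbitacin I and 230 and 263 CPM with DMSO (log2 fold change 0.97, SE 0.15, adjusted p = 0.00863). Usp9x, a deubiquitinase of SMAD4, rose by 0.84 and the phosphatase gene Ppm1a by 0.43, while the ubiquitin ligase gene Wwp2 fell by 0.43. Without DMSO replicate 1 none of these 4 passed (adjusted p 0.057 for Fkbp1a, 0.074 for Usp9x, 0.099 for Ppm1a and 0.2 for Wwp2). Ppm1a also did not pass with library totals (0.19, adjusted p = 0.2), without DMSO replicate 2 (0.11) or without cucurbitacin I replicate 1 (0.062), nor did Wwp2 without cucurbitacin I replicate 1 (0.11) or 2 (0.065).

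Further BMP-responsive genes, counted apart from Id1 to Id4 and Smad6, had 3 of 10 lower, 0 higher and 7 not past the threshold, with a median of -0.72, where 19.5% of all genes tested were lower and 13.9% higher. The homeobox gene Msx1 had 14 and 10 counts with cucurbitacin I and 532 and 258 with DMSO, and fell by 4.72 on the log2 scale (SE 0.43, adjusted p = 0.00289). Hey1, which is also a Notch target, fell by 2.55, and Tbx3 fell by 0.76. Tbx3 passed without DMSO replicate 2, but not without DMSO replicate 1 (0.17), cucurbitacin I replicate 1 (0.059) or cucurbitacin I replicate 2 (0.059). Msx2 did not pass: it had 21.5 and 9.21 CPM with cucurbitacin I and 27 and 15.4 CPM with DMSO (log2 fold change -0.46, SE 0.45). Its call depended on the setting, with -1.20 (adjusted p = 0.049) without cucurbitacin I replicate 1, -0.52 (0.049) with the replicate block and 0.02 without cucurbitacin I replicate 2. TGF-beta-responsive genes had 5 of 16 lower and 3 higher, beside the same shares over all genes, with a median of -0.13. Hmga2, a chromatin protein gene that an antisense gene overlaps, fell by 2.34, the transcription factor gene Snai1 by 2.38 and the matrix gene Tgfbi by 1.18. Tgfbi did not pass without DMSO replicate 1 (0.054). The 3 that rose were Tagln (3.13), Acta2 (2.61) and Ctgf (2.29), of which Acta2 and Tagln are also smooth muscle genes, and the smooth muscle markers given above were higher beside them. Ctgf had 723 and 182 CPM with cucurbitacin I and 88 and 96.7 CPM with DMSO. Its log2 fold change was 0.98 (adjusted p = 0.0039) without cucurbitacin I replicate 1 and 2.97 (0.0002) without cucurbitacin I replicate 2. Ctgf did not pass without DMSO replicate 1 (0.16) or 2 (0.12), and a noncoding gene with 5163 counts overlaps it.

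All 3 E protein genes, whose products pair with Id proteins, were lower. Tcf3, which encodes E2A, had 92.3 and 116 CPM with cucurbitacin I and 285 and 228 CPM with DMSO (log2 fold change -1.30, SE 0.17, adjusted p = 0.00595). Tcf12 fell by 0.61 and Tcf4 by 0.52, and both calls were lost without DMSO replicate 1 (adjusted p = 0.068 and 0.078), that of Tcf4 also without DMSO replicate 2 (0.05). The E protein genes moved in the same direction as the 4 Id genes, with log2 fold changes closer to 0; the difference was not tested.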

How the data were processed

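Total RNA of 4 samples was sequenced from TruSeq libraries, per the labels' protocols. STAR 2.3.0e, HTSeq 0.6.0 and build mm10 are named in the submitters' processing notes; neither an annotation release nor a strand setting is stated in them. The authors deposited whole-number counts per gene, and a normalized signal, which is the count over a library-wide size factor. They also deposited a log2 fold change, its standard error and statistic (scores without a fixed range) and p-values, in DESeq2's columns per the file headers.

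Of 43374 lines, 4195 were repeats of an ID and were dropped. Tests on these counts used edgeR 4.0.16 under R 4.3.3 (filterByExpr with a minimum count of 10, TMM, glmQLFit, 2-sided glmQLFTest, Benjamini-Hochberg over all 16722 genes tested). The SE is the absolute log2 fold change over the square root of F, and intervals use 2 residual and 3.54 prior degrees of freedom. Exonic lengths and overlaps came from GENCODE M21, and promoters from RefSeq on GRCm38.p6. Replicates of a group differed by more than sampling noise (chi-square per degree of freedom 33.85 with cucurbitacin I and 24.35 with DMSO).

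Members and lists were chosen with earlier results of these data known. Named genes are all members, up to 4 called genes of each pathway list by adjusted p, and a fixed set of pathway genes, of which 1 is not reported here; Ctgf, Tagln and Sostdc1 were named after their values were seen. Alternatives were DESeq2 1.42.0, median-of-ratios factors, library totals, no filter, a replicate block, a threshold of 0.01 and each library left out; a group left with 1 library is assumed to vary like the other.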

Additional observations from a re-analysis of the deposited data

How the results depend on the processing

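All 18 called members kept their sign under the 9 alternatives that gave each a fold change, and 12 stayed past the threshold under each of them. The 16 lower calls ranged from 11 to 18 over all alternatives. The 2 higher calls became 4 without a filter on low counts and 4 with the replicate block, 1 at a threshold of 0.01, and 1 to 5 over the fits without 1 library. Among the other pathway genes, the 23 lower and 9 higher calls became 7 and 3 at a threshold of 0.01, and ranged from 12 to 22 and from 2 to 15 over the fits without 1 library. Over all genes, 5577 calls became 1754 at a threshold of 0.01 and ranged from 1850 to 5110 without 1 library, the lowest being without DMSO replicate 1. Same-numbered libraries deviated together with a correlation of 0.242 across genes, but the labels do not say that the numbers pair the samples; with the replicate block the members had 17 lower and 4 higher and all genes 6367 calls.

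In these alternatives, signs turned for named genes that were not called with all 4 libraries. Under library totals they were Bmp2 (-0.21), Bmp7 (-0.02), Tgfb2 (-0.13), Acvr1 (-0.19), Acvr2a (-0.01), Bmpr2 (-0.11), Tgfbr3 (-0.15) and Nog (-0.07). Over the fits without 1 library, values spanned 0 for Bmp10 (-0.26 to 0.83), Bmp2 (-0.12 to 0.17), Bmp8b (-0.24 to 0.06), Tgfb1 (-0.70 to 0.08), Tgfb2 (-0.39 to 0.49), Inha (-0.47 to 0.10), Acvr1 (-0.05 to 0.15), Acvr1c (-2.32 to 0.85), Nog (-1.05 to 0.83) and Msx2 (-1.20 to 0.02). The causes were not tested. Depth limits the 10 untested members, and 2 libraries per group limit every interval.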

Other observations

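Gdf2 and Gdf10, which both fell, are neighbours on chromosome 14, with 5759 bp between them and the same strand. Rbp3, the next gene, had 7 and 5 counts with cucurbitacin I and 30 and 35 with DMSO, and fell by 2.13 on the log2 scale (edgeR adjusted p = 0.0153). Around Smad4, the tested genes within 100000 bp were Elac1 (log2 fold change 0.27, SE 0.18), Mex3c (-0.28, SE 0.09, adjusted p = 0.0527) and Me2, which rose by 0.63 (SE 0.12, adjusted p = 0.0162). Their values were all well below the 2.05 of Smad4. Near Gdf9, Uqcrq, 192 bp away, rose by 0.72 (SE 0.10, adjusted p = 0.00636) and Shroom1, 19301 bp away, had 1424 and 656 counts with cucurbitacin I and 94 and 102 with DMSO (log2 fold change 3.67, adjusted p = 0.00343). Gm10447 (3.11, adjusted p = 0.017) and Gm12212 (3.34, 0.0153) also rose. Aff4, 9193 bp away, did not pass (0.19, adjusted p = 0.307), nor did Sept8 (-0.08, 0.734) or Zcchc10 (-0.06, 0.846). The difference between neighbours was not tested.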
